A study of Arabidopsis thaliana with 6 samples.

Results

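UDP-dependent glycosyltransferases (UGTs) and glutathione S-transferases (GSTs) were read in rosette leaves of Arabidopsis thaliana on Affymetrix ATH1 arrays, in the pad4 est1b double mutant and in pad4. The genes taken were those whose probe set is assigned to 1 gene in the platform annotation and whose symbol begins with UGT or GST and a family letter or digit, with UGT74C1 set aside. These were 60 genes, 1 probe set each, out of 13356 genes that a probe set names alone and 22746 probe sets other than controls. They comprise 47 UGT genes, 11 GSTs of the tau class (GSTU) and 2 other GSTs, GSTF4 of the phi class and GSTL3 of the lambda class. The current reference table lists 58 UGT, 27 tau GST and 20 other GST symbols. Genes of these families under other symbols are not in those counts, so the share of each family covered is not known from them. No limit on signal was set, and 28 of the 60 genes averaged at least 20 signal units over the 6 arrays.

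UGTs move a sugar from a UDP-sugar to hormones, flavonoids, phenylpropanoids and foreign compounds, which makes these molecules soluble, storable or inactive. GSTs join the tripeptide glutathione to electrophilic compounds, or bind them without reaction. The tau class is specific to plants, and many of its members are known to be induced by herbicides, oxidised lipids and pathogens. The conjugates made by both families can be moved into the vacuole, and in leaves both families are known from detoxification, hormone balance and defence.

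The double mutant carries pad4-1 and the est1b-1 insertion (SALK_073354), in the Col-0 background. The pad4 group carries pad4-1 alone (stock N3806, Col), so both groups lack PAD4, a regulator of salicylic acid defence, and no wild type enters the comparison. The double mutant rests on a single insertion allele. Plants grew on soil at 22 °C, 2 weeks in high humidity and then 3 weeks in lower humidity, and each genotype has 3 arrays. The labels give stage 5.10 for the 3 double mutant samples and pad4 replicate 1, and stage 3.90 for pad4 replicates 2 and 3, which are labelled as leaves and the others as developed rosette leaves. They do not say whether the replicates were separate plants or cultures, so a p-value here reflects only how far these arrays scatter, which may be technical.

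Values are signals on a linear scale, each array scaled by the authors to a trimmed mean of 100.0. Heights of different probe sets are not compared, since each probe set has its own response. Median signal per array ran from 25.1 to 31.6 units in the double mutant, against 21.2 to 30.5 in pad4. The leaf label was borne out by the 3 measured mesophyll markers (RCA, LHCB4.1 and LHCB4.2, of 14 listed), whose summed signal ran from 18842.5 to 26850.3 in the double mutant and from 20956.0 to 22591.7 in pad4. The root marker PYK10 stayed at or below 12.4 units and the meristem marker CLV3 at or below 1.6 in all arrays. Neither of the lists for seed or for flower and pollen had a gene that the platform annotation names alone on a probe set. The 3 measured genes of the guard cell list (FMA, MUTE and SPCH, of 7 listed) summed to 56.6 to 68.3 units in the double mutant, against 31.0 to 103.3 in pad4. Most of that sum is FMA (log2 difference, double mutant minus pad4, -0.13), while SPCH lay at 0.34 and MUTE at -0.01. The part of these genes in the results was not tested. In whole leaves, fewer cells of a type and less RNA per cell cannot be told apart. The first principal component, 55.4% of the variance, set both replicate 1 arrays (-46.9 in the double mutant, -47.8 in pad4) against both replicate 3 arrays (39.9 and 72.7), so results are also given without the replicate 3 arrays where these matter.

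None of the 60 genes passed the test between the double mutant and pad4. The test was limma over all 22746 probe sets, two-sided, on log2(signal + 10), with p-values adjusted by the Benjamini-Hochberg method and a threshold of 0.05. It called 0 probe sets in all (0% of those tested), with a smallest adjusted p of 0.11. The smallest adjusted p among the 60 genes was 0.61. At an unadjusted p under 0.05 limma gave 3 of the 60 genes, 5.0%, against 5.08% of all probe sets. The 3 are UGT87A2 and UGT71C3 on the higher side and UGT73C7 on the lower side, and their share does not stand above that of the whole array.

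The 2 genotypes did not overlap in 9 of the 60 genes. All 3 double mutant arrays lay above all 3 pad4 arrays in 5 genes, all UGTs (8.3% of the 60, against 5.52% of all probe sets). They lay below in 4 genes, UGT73B1, UGT73C7, UGT76E2 and GSTU18 (6.7%, against 3.86%). No gene of the 60 differed by more than 1 on the log2 scale, a size that 221 of the 22746 probe sets exceeded. Log2 differences, double mutant minus pad4, ran from -0.69 for GSTU20 to 0.89 for UGT71C3. In 53 of the 60 genes the mean range among the 3 arrays of a genotype was larger than the difference between genotypes (88.3%, against 91.4% of all probe sets).

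**Figure D1:**
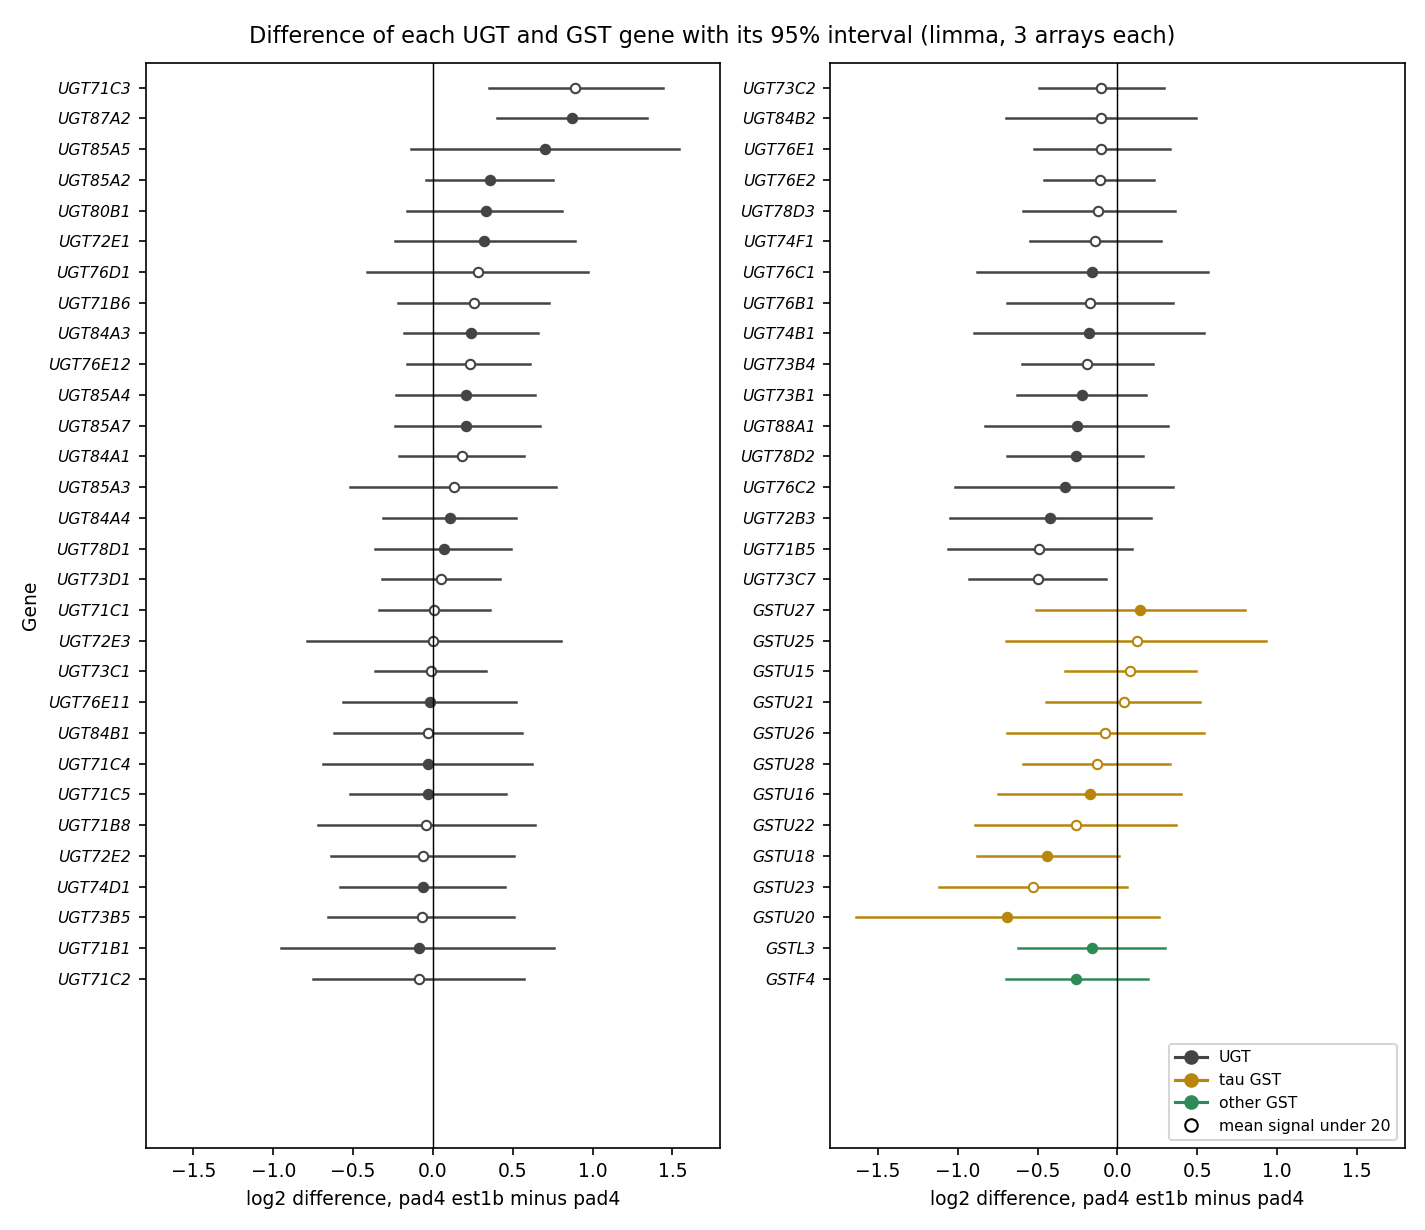
Log2 difference (double mutant minus pad4, x axis) of each of the 60 genes with its 95% interval from limma, UGTs in dark grey, tau GSTs in gold and other GSTs in green; open circles mark genes with a mean signal under 20 units. Only the intervals of UGT71C3, UGT87A2 and UGT73C7 leave out 0, before adjustment, and no gene lies beyond 1 in either direction.

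As groups, the UGTs were centred near 0 and the tau GSTs slightly below it. The median log2 difference of the 47 UGTs was -0.03, with 19 positive and 28 negative values. That of the 11 tau GSTs was -0.13, with 4 positive and 7 negative values. Over all probe sets the median was 0.02, and 46.7% of values were negative. GSTL3 and GSTF4 were both negative, with a median of -0.21. A list of this kind gets no p-value here, because its genes are not replicates.

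Array by array, the median log2(signal + 10) of the tau GSTs was 4.17, 4.42 and 4.57 in the double mutant (replicates 1, 2 and 3), against 4.53, 4.81 and 4.92 in pad4. The ranges overlap, since double mutant replicate 3 lies above pad4 replicate 1. For the UGTs the medians were 4.36, 4.68 and 4.69 in the double mutant, against 4.53, 4.47 and 4.75 in pad4, and here the genotypes are interleaved. Within each array, the tau GST median minus the UGT median was -0.20, -0.26 and -0.12 on the log2 scale in the double mutant, against 0.00, 0.34 and 0.17 in pad4. On this measure the genotypes do not overlap, and all 3 double mutant arrays are the lower ones. Yet each tau GST median is the signal of the middle gene alone, and that gene changes between arrays. It is GSTU28 in double mutant replicate 1, GSTU26 in pad4 replicates 1 and 3, and GSTU23 in the other arrays. These genes are dim there (7.95 to 20.4 units). The separation therefore compares different probe sets and does not show a shift of the whole class. Taken gene by gene, the median difference of the tau GSTs lay only 0.10 below that of the UGTs, so the size of the gap depends on how it is summarised. Neither measure was given a test.

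The sign of the tau GST median difference depended on which pad4 arrays were used. Against pad4 replicate 1 alone, the only pad4 array labelled 5.10, the tau GST median was 0.18 and the UGT median 0.06. Without pad4 replicate 1 the tau GST median was -0.25. Without both replicate 3 arrays it was -0.06, with 0.02 for the UGTs. Stage and array cannot be told apart in pad4, because that stage is carried by a single array.

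**Figure D2:**
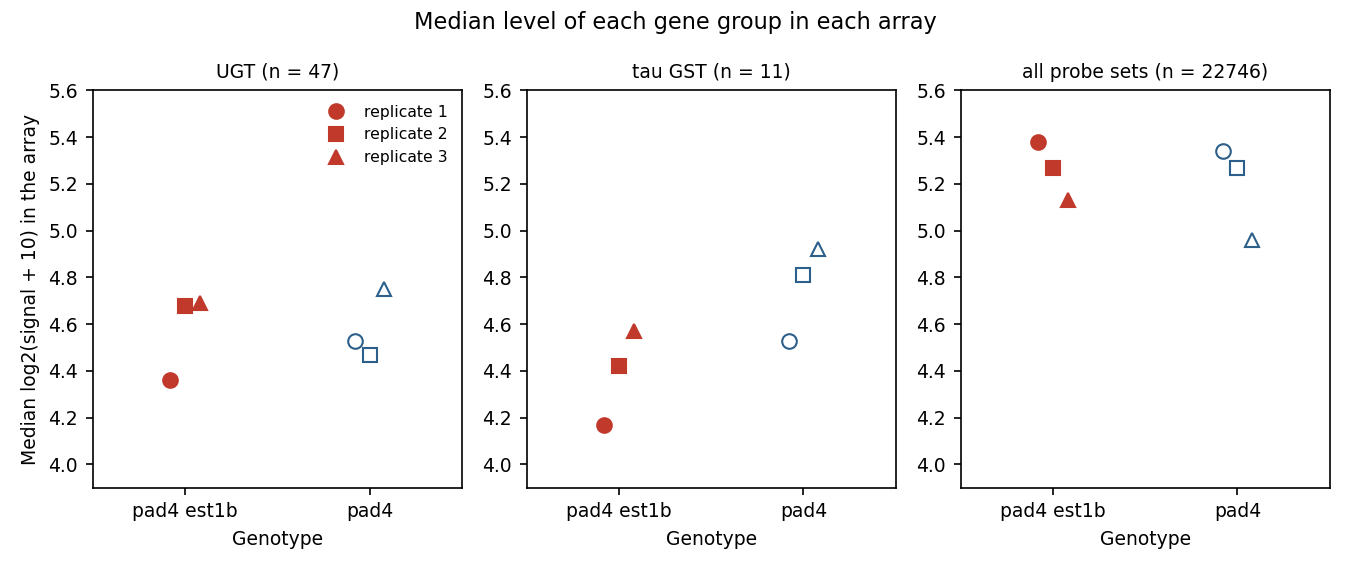
Median log2(signal + 10) (y axis) of the 47 UGT genes, the 11 tau GST genes and all 22746 probe sets in each array, double mutant filled red on the left and pad4 open blue on the right, with circles, squares and triangles for replicates 1, 2 and 3. The tau GST medians run from 4.17 to 4.57 in the double mutant and from 4.53 to 4.92 in pad4, while the UGT medians of the genotypes are interleaved.

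Among the tau GSTs, GSTU20, GSTU23 and GSTU18 had the most negative differences. GSTU20 (AT1G78370), which interacts with the jasmonate-conjugating enzyme JAR1 (also called FIN219), read 608, 512 and 1214 units in the double mutant, against 922, 1018 and 1719.6 in pad4. In both genotypes replicate 3 is the highest array, and the genotypes overlap because double mutant replicate 3 lies above pad4 replicates 1 and 2. The means were 778 ± 380.4 in the double mutant against 1219.8 ± 436 in pad4 (SD, n = 3 each), and limma gave a log2 difference of -0.69 with a 95% interval from -1.64 to 0.26 (adjusted p = 1.00). With single arrays left out the difference ran from -1.06 (without double mutant replicate 3) to -0.42 (without pad4 replicate 3), with -0.44 without double mutant replicate 2. It was -0.79 without both replicate 3 arrays and -0.35 against pad4 replicate 1 alone.

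GSTU18 (AT1G10360) is the only GST whose genotypes did not overlap. It read 278, 309 and 367 units in the double mutant, against 375, 449 and 475 in pad4. The highest double mutant array lies just under the lowest pad4 array. Its log2 difference was -0.44 ± 0.18 (SE), with an interval from -0.88 to 0.01 (adjusted p = 0.99 by limma), and -0.24 against pad4 replicate 1 alone. GSTU23 (AT1G78320) read 5.51, 11.3 and 13.8 units in the double mutant, against 13.7, 18.1 and 25.9 in pad4. These signals are low, and the genotypes overlap narrowly at 13.8 and 13.7. Its log2 difference was -0.53 ± 0.25 (SE), and -0.25 against pad4 replicate 1 alone.

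GSTU20 and GSTU23 belong to a row of 4 neighbouring genes, GSTU23, GSTU22, GSTU21 and GSTU20, with no other protein-coding gene between them in the reference table. GSTU22 read 3.66, 3.22 and 4.11 units in the double mutant, against 1.45, 7.17 and 12.2 in pad4 (log2 difference -0.26). GSTU21 read 3.89, 0.766 and 0.766 units in the double mutant, against 0.249, 3.7 and 0.585 in pad4 (0.04). The inner genes of this row are dim and scattered, so no shared direction can be read for the row as a whole.

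The remaining tau GSTs lay closer to 0. GSTU27 (AT3G43800) read 100.3, 103 and 186 units in the double mutant, against 97.6, 110.1 and 130.3 in pad4, with a log2 difference of 0.14, and of -0.13 without double mutant replicate 3. GSTU16 had 91.7, 92.3 and 70.4 units in the double mutant, against 114, 113 and 68.7 in pad4, with replicate 3 lowest in both genotypes. GSTU25, one of the tau GSTs that conjugate the explosive TNT, read 0.9, 8.6 and 11.7 units in the double mutant, against 1.02, 6.19 and 9.47 in pad4. Its replicate 1 arrays are the lowest of both genotypes, and the genotypes could not be separated.

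GSTU26, the direct neighbour of GSTU25, read 11.4, 21.4 and 22.2 units in the double mutant, against 13.1, 26.4 and 20.4 in pad4. The same low replicate 1 values appear in both genotypes, and its log2 difference was -0.08. GSTU15 read 0.477, 3.16 and 0.315 units in the double mutant, against 0.172, 1.24 and 0.48 in pad4 (log2 difference 0.08). GSTU28 had a difference of -0.13 at signals of 12.2 units or less in every array. Neither dim gene separates the genotypes. Of 12 tau GSTs listed as responsive to foreign compounds, 3 were matched to a probe set (GSTU20, GSTU25 and GSTU26), with 1 positive and 2 negative values and 0 past the test.

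Of the other GST classes only lambda and phi were represented, with a single measured gene each. GSTL3 (AT5G02790), of the lambda class, whose members act as thiol transferases rather than conjugating enzymes, read 858, 607 and 783 units in the double mutant, against 918, 806 and 773 in pad4. The genotypes overlap, and the log2 difference was -0.16 with an interval from -0.62 to 0.30. GSTF4 (AT1G02950) read 27.8, 22.7 and 26.8 units in the double mutant, against 37.8, 25.4 and 36.0 in pad4, a log2 difference of -0.26. The 5 listed phi GSTs linked to defence, GSTF12 of the anthocyanin pathway and GSTZ1 of tyrosine breakdown were not analysed here.

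**Figure D3:**
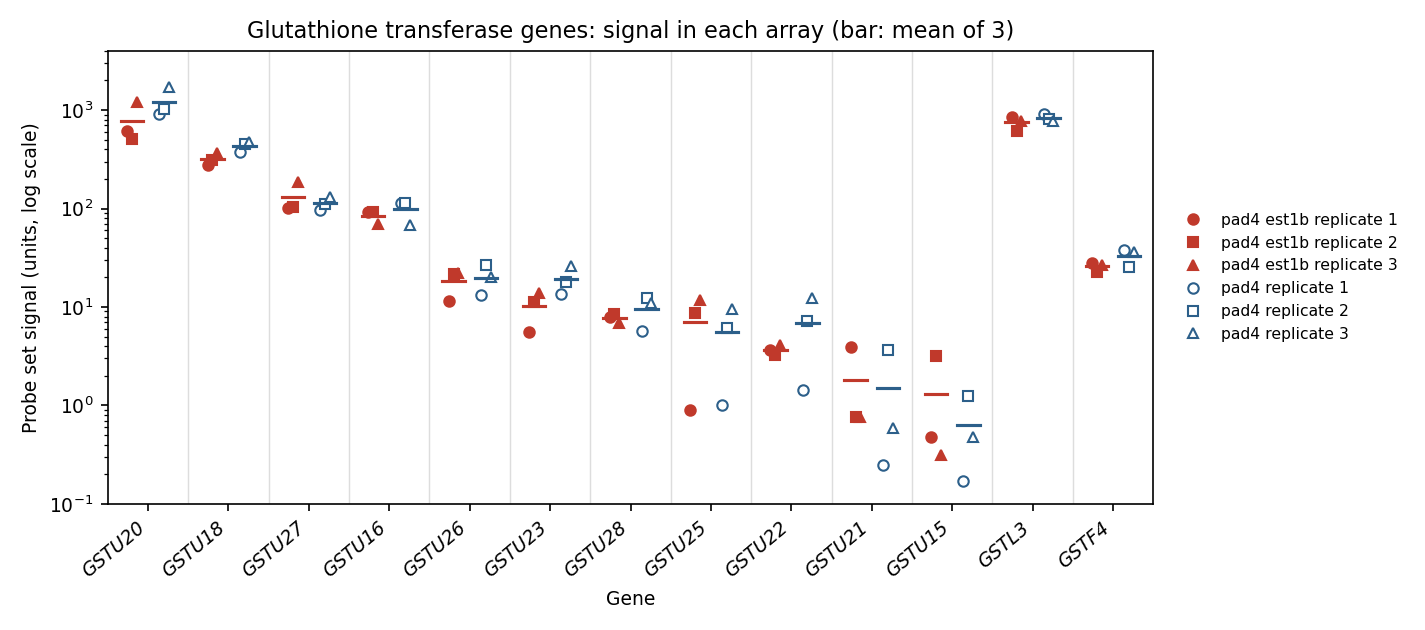
Probe set signal (y axis, log scale, units) of the 11 tau GST genes and of GSTL3 and GSTF4 in each array, double mutant filled red on the left of each gene and pad4 open blue on the right, with horizontal bars for the means of 3 arrays. GSTU18 is the only gene whose genotypes do not overlap, and replicate 3 (triangles) is the highest array of both genotypes for GSTU20 (1214 and 1719.6 units); heights are not comparable between genes.

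Among the UGTs, UGT87A2 had the smallest p-value. UGT87A2 (AT2G30140), known for its part in flowering time and stress tolerance, read 53.5, 73.3 and 47.8 units in the double mutant, against 30, 24.8 and 25.9 in pad4. The genotypes are well apart, with every double mutant array above every pad4 array. The means were 58.2 ± 13.4 in the double mutant against 26.9 ± 2.73 in pad4 (SD, n = 3 each), a log2 difference of 0.87 ± 0.19 (SE), or 1.83-fold, with an interval from 0.40 to 1.34. By limma the unadjusted p was 0.0036 and the adjusted p 0.61, so the gene did not pass. Its difference kept its sign in all 18 alternatives that tested it, between 0.62 and 1.09, and was 0.75 against pad4 replicate 1 alone.

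UGT71C3 (AT1G07260), an enzyme reported to glucosylate methyl salicylate, had the most positive difference, at low signals. It read 10.8, 11.1 and 16.9 units in the double mutant, against 5.86, 0.402 and 1.21 in pad4. The genotypes do not overlap, but every array lies under 20 units, and its size depended on the offset: 0.89 ± 0.23 (SE) with 10 units, 2.72 without and 0.40 with 30. In the fit without an offset, the pad4 value of 0.402 was raised to a floor. The adjusted p was 0.67 by limma. Against pad4 replicate 1 alone the log2 difference was 0.52. UGT71C4 and UGT71C5, which precede it in the same row of genes, were bright and did not share this direction.

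UGT71C4 (AT1G07250) read 253, 447 and 272 units in the double mutant, against 266, 385 and 324 in pad4. Replicate 2 is the highest array of both genotypes. UGT71C5 (AT1G07240), which glucosylates abscisic acid, read 113, 145 and 147 units in the double mutant, against 121, 125 and 169.8 in pad4. Both had log2 differences of -0.03, with intervals from -0.69 to 0.62 for UGT71C4 and from -0.52 to 0.46 for UGT71C5.

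The UGT85A family had 5 positive differences out of 5 genes. UGT85A5 (AT1G22370), whose overexpression raises salt tolerance in tobacco, read 60.6, 64.5 and 126 units in the double mutant, against 28.5, 52.5 and 59.3 in pad4. The genotypes do not overlap, with replicate 3 again the highest array of both. Its log2 difference was 0.70 ± 0.35 (SE), or 1.62-fold, with an interval from -0.14 to 1.54 (adjusted p = 1.00 by limma). With single arrays left out it ran from 0.40 (without double mutant replicate 3) to 0.87, with 0.44 without pad4 replicate 1. It was 0.56 without both replicate 3 arrays and 1.22 against pad4 replicate 1 alone.

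UGT85A2 (AT1G22360) is the direct neighbour of UGT85A5. It read 166, 143 and 156 units in the double mutant, against 124, 104 and 130.0 in pad4. No array of the double mutant reaches down to the pad4 range, and the log2 difference was 0.36 ± 0.16 (SE), with an interval from -0.04 to 0.75. The other genes of the same row, UGT85A7 and UGT85A3, had 0.21 and 0.13 with overlapping genotypes, and UGT85A4, which lies elsewhere, had 0.21. UGT85A3 turned negative in 2 of its 17 alternatives, while the other 4 genes of the family stayed positive in all that tested them.

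**Figure D4:**
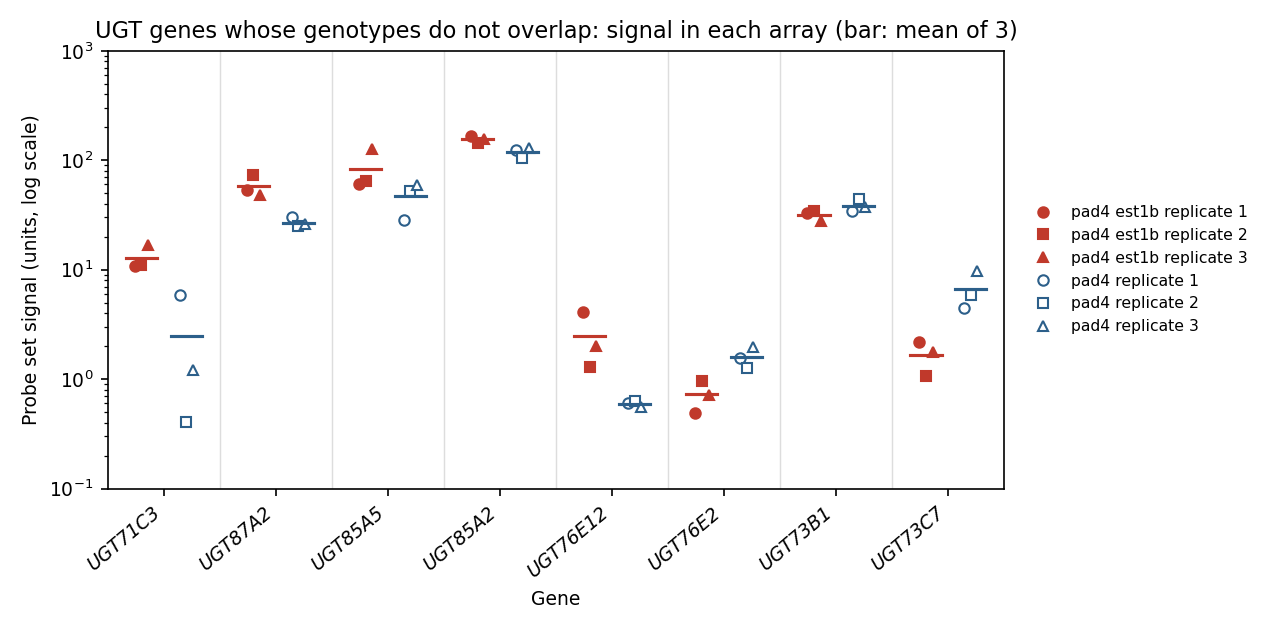
Probe set signal (y axis, log scale, units) in each array for the 8 UGT genes whose genotypes do not overlap, double mutant filled red on the left of each gene and pad4 open blue on the right, with bars for the means of 3 arrays. UGT87A2 runs from 47.8 to 73.3 units in the double mutant, with all 3 pad4 arrays lower; UGT71C3, UGT76E12, UGT76E2 and UGT73C7 stay under 20 units in every array, and heights are not comparable between genes.

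On the lower side the UGT differences were smaller or sat at low signals. UGT73C7 (AT3G53160), reported to glucosylate hydroxycinnamic acids, read 2.19, 1.07 and 1.75 units in the double mutant, against 4.48, 5.82 and 9.66 in pad4. The genotypes do not overlap, yet no array reaches 10 units, and the log2 difference ran from -1.98 without an offset to -0.21 with 30 units around a main value of -0.50 (adjusted p = 0.91 by limma). Against pad4 replicate 1 alone it was -0.31. UGT71B5 read 2.56, 0.929 and 4.21 units in the double mutant, against 3.0, 10.6 and 10 in pad4, which overlap. UGT72B3 (AT1G01420) read 17.6, 22.5 and 15.7 units in the double mutant, against 19.1, 25.8 and 43.5 in pad4, with a log2 difference of -0.42, of -0.18 without pad4 replicate 3 and of -0.03 against pad4 replicate 1 alone.

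Of the measured genes that conjugate salicylic acid and related defence compounds, UGT74F1 and UGT76B1 were at the bottom of the signal range. UGT74F1 (AT2G43840), which makes salicylic acid glucoside, read 0.643, 1.96 and 0.869 units in the double mutant, against 3.81, 2.51 and 0.655 in pad4. UGT76B1 (AT3G11340), which acts on isoleucic, salicylic and N-hydroxypipecolic acids, read 0.317, 0.441 and 0.46 units in the double mutant, against 0.107, 0.209 and 5.62 in pad4. At such signals neither gene could be compared between genotypes. Of 4 listed genes of this role 3 were matched to a probe set, with 1 positive value (UGT71C3), 2 negative ones and 0 past the test.

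UGT73B genes, which are known to respond to pathogens and oxidative stress, had 3 negative values out of 3 measured, of 5 listed. UGT73B1 (AT4G34138) read 32.9, 34.1 and 27.6 units in the double mutant, against 34.3, 44.2 and 37.1 in pad4. The genotypes are apart by only 34.1 against 34.3 units, and its log2 difference was -0.22 ± 0.17 (SE). UGT73B4 read 0.585, 0.456 and 1.39 units in the double mutant, against 2.12, 4.28 and 0.88 in pad4. UGT73B5 read 6.54, 4.04 and 8.44 units in the double mutant, against 3.02, 12.2 and 7.28 in pad4. These neighbours overlap between genotypes and had differences of -0.19 and -0.07. That of UGT73B5 turned positive in 4 of its 17 alternatives.

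Flavonoid glycosyltransferases showed no common direction. UGT78D2 (AT5G17050), the flavonoid 3-O-glucosyltransferase, read 36.9, 52.9 and 46.0 units in the double mutant, against 56.5, 60.0 and 51.3 in pad4. UGT78D1 (AT1G30530), the flavonol 3-O-rhamnosyltransferase, read 51.8, 49.9 and 67.5 units in the double mutant, against 48.3, 58.1 and 52.7 in pad4. The log2 differences were -0.26 (interval -0.69 to 0.16) and 0.07 (interval -0.36 to 0.49), and both genes overlapped between genotypes. UGT78D3, the flavonol arabinosyltransferase, read 0.824, 1.39 and 1.35 units in the double mutant, against 0.563, 0.951 and 5.38 in pad4. UGT79B1, an anthocyanin xylosyltransferase listed on the array under the symbol UF3GT, read 3.31, 1.79 and 21.5 units in the double mutant, against 1.45, 7.99 and 12.6 in pad4. In both dim genes the arrays of 1 genotype lie further apart than the genotypes do.

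Genes that inactivate growth hormones showed no difference that stood out from the replicate spread. UGT76C2 (AT5G05860), which attaches glucose to the ring nitrogens of cytokinins, read 78.8, 74.9 and 71.6 units in the double mutant, against 114, 131 and 60.2 in pad4. Its neighbour UGT76C1 (AT5G05870), with the same activity, read 61.0, 39.4 and 49.6 units in the double mutant, against 62.4, 80.1 and 34.6 in pad4. In both genes pad4 replicate 2 is the highest and pad4 replicate 3 the lowest of the 6 arrays. The log2 difference of UGT76C2 was -0.33, and ran from -0.64 without pad4 replicate 3 to -0.13 without pad4 replicate 2. That of UGT76C1 was -0.16, and ran from -0.45 to 0.06 over the same arrays left out, so that its sign turned. UGT73C1, a cytokinin O-glucosyltransferase, read 0.367, 0.612 and 0.449 units in the double mutant, against 0.449, 0.79 and 0.492 in pad4 (log2 difference -0.01).

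Among the auxin conjugating genes only UGT74D1 (AT2G31750) was bright enough to follow. It read 40.8, 63.7 and 47.2 units in the double mutant, against 51.6, 44.1 and 63.1 in pad4, and the genotypes are interleaved (log2 difference -0.06). UGT84B1 and UGT84B2 act on indole-3-acetic acid and are direct neighbours by gene order. UGT84B1 read 0.294, 2.87 and 6.22 units in the double mutant, against 6.04, 0.793 and 3.27 in pad4 (-0.03). UGT84B2 read 0.521, 5.87 and 1.09 units in the double mutant, against 4.03, 0.412 and 5.7 in pad4 (-0.10). At these signals the arrays of both genotypes are scattered over the same range. For abscisic acid, UGT71B6 (AT3G21780) read 9.59, 15.6 and 9.44 units in the double mutant, against 11.0, 6.8 and 6.14 in pad4, a log2 difference of 0.26. UGT71B8 read 0.431, 10.1 and 1.26 units in the double mutant, against 5.0, 3.64 and 2.56 in pad4 (-0.04). All 3 auxin genes with a named probe set (of 6 listed), all 3 cytokinin genes (of 4) and 2 of the 3 abscisic acid genes (of 5) had negative values, but several are close to 0, and 0 passed. UGT74D1, UGT76C1, UGT84B1, UGT84B2, UGT71B8 and UGT71C5 turned positive in some alternatives, and UGT73C1 reached 0.00, while UGT76C2 stayed negative. No direction can therefore be read for these roles.

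Of the 5 phenylpropanoid genes with a named probe set, UGT72E1, UGT84A3 and UGT84A1 had positive differences, UGT72E3 lay at 0.00 and UGT72E2 at -0.06. UGT72E1 (AT3G50740), which glucosylates coniferyl aldehyde, read 202, 338 and 224 units in the double mutant, against 182, 187 and 225 in pad4. Double mutant replicate 2 stands alone at the top, and without it the log2 difference was 0.11, against 0.32 with all arrays. UGT84A3 (AT4G15490), which makes hydroxycinnamate glucose esters, read 62.2, 60.2 and 49.5 units in the double mutant, against 53.7, 40.8 and 46.4 in pad4, a difference of 0.24 with overlapping genotypes.

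Its neighbour UGT84A1 read 3.37, 2.3 and 0.488 units in the double mutant, against 0.638, 0.575 and 0.498 in pad4. The monolignol enzyme UGT72E2 read 10.6, 23.6 and 12.8 units in the double mutant, against 17.1, 12.5 and 19.6 in pad4. For UGT72E3 the values were 0.503, 9.45 and 1.08 units in the double mutant, against 0.799, 8.46 and 1.31 in pad4, with replicate 2 highest in both genotypes. None of these dim genes separates the genotypes.

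Outside the hormone and phenolic roles, UGT80B1 (AT1G43620), a sterol glucosyltransferase of membranes and seed coat, read 126, 99.7 and 142 units in the double mutant, against 114, 84.6 and 88.0 in pad4. The genotypes overlap, and the log2 difference was 0.33 (interval -0.16 to 0.81). UGT80A2, its relative listed under the symbol SGT, read 148, 111 and 67.8 units in the double mutant, against 153, 79.8 and 63.6 in pad4, with replicate 1 highest and replicate 3 lowest in both genotypes. UGT74B1 (AT1G24100), which glucosylates the thiohydroximate precursors of glucosinolates, read 177, 145 and 115 units in the double mutant, against 244, 150.3 and 119 in pad4. Both genotypes share the order of replicates, high in replicate 1 and low in replicate 3, and the difference was -0.18.

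UGT72B1, which detoxifies chlorinated phenols and is listed under GT72B1, read 147, 191 and 439 units in the double mutant, against 138, 146 and 462 in pad4. Replicate 3 is far above the others in both genotypes, and the genotypes are interleaved (log2 difference 0.13). UGT88A1 (AT3G16520) read 917, 1134 and 675 units in the double mutant, against 1144, 1157 and 903 in pad4, a difference of -0.25 with overlapping genotypes. The 11 UGT genes not described so far had differences from -0.11 to 0.28, 5 positive and 6 negative, and 2 of them, UGT76E12 and UGT76E2, did not overlap between genotypes. UGT76E12 ran from 1.29 to 4.1 units in the double mutant, against 0.553 to 0.631 in pad4, and UGT76E2, one of the enzymes that glucosylate 12-hydroxyjasmonate, from 0.493 to 0.967 in the double mutant, against 1.25 to 1.97 in pad4. Such signals are near the bottom of the scale.

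Many of these genes sit in tandem rows. By gene order in the reference table, 39 of the 60 genes form 16 rows, counting members with at most 3 other protein-coding genes between them, and 21 stand alone. In 8 rows all measured members had differences of 1 sign and in 8 rows of both signs. The row UGT85A7, UGT85A2, UGT85A5 and UGT85A3 and the row UGT84A1, UGT84A3 and UGT84A4 were positive throughout. The rest of these 8 rows were negative throughout. They are UGT73B5 with UGT73B4, UGT84B2 with UGT84B1, UGT73C1 with UGT73C2, UGT76C2 with UGT76C1, UGT78D3 with UGT78D2, and UGT76E1 with UGT76E2. In the row of UGT71C5, UGT71C4 and UGT71C3 only UGT71C3 was positive.

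Several members differed more between arrays of 1 genotype than between genotypes, and did so alike in both. In pad4, replicate 1 is labelled stage 5.10 and replicate 3 stage 3.90, so the contrast of these arrays is also one of stage. In the double mutant both are labelled 5.10. From replicate 1 to replicate 3, GSTU20 differed by 0.99 on the log2 scale in the double mutant and 0.89 in pad4, GSTU25 by 1.00 and 0.82, UGT85A5 by 0.95 and 0.85, and UGT71B1 by 1.21 and 0.72. UGT74B1 lay lower in replicate 3, with -0.58 in the double mutant and -0.98 in pad4. The sign was the same in both genotypes for 43 of the 60 genes and for 16365 of the 22746 probe sets. Across the 60 genes these differences correlated at r = 0.53, and across all probe sets at 0.73, a description over genes that share the same 4 arrays. The tau GST median for this contrast was 0.39 in the double mutant and 0.40 in pad4, against 0.08 and 0.07 for the UGTs and 0.01 and -0.05 for all probe sets. For the tau GSTs these values are larger than the median difference of -0.13 between genotypes. The measures are unlike, since these values compare single arrays and that difference compares means of 3 arrays.

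**Figure D5:**
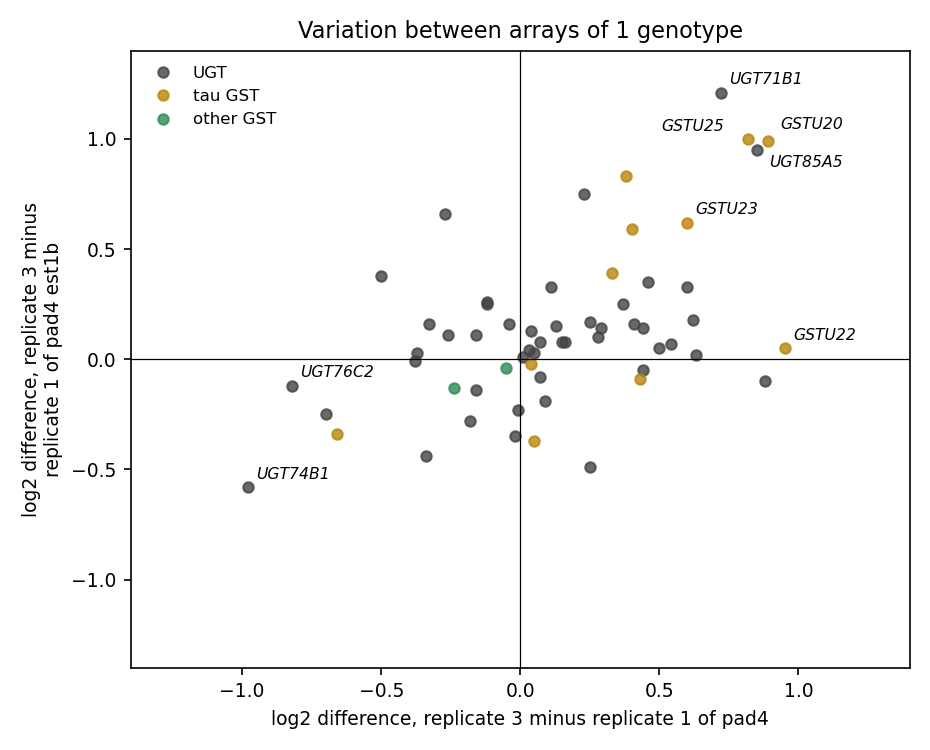
Log2 difference between replicate 3 and replicate 1 in pad4 (x axis) and in the double mutant (y axis) for the 60 genes, UGTs in dark grey, tau GSTs in gold and other GSTs in green. GSTU20, GSTU25, UGT85A5 and UGT71B1 lie at the upper right, between 0.72 and 1.21 in both genotypes, and UGT74B1 at the lower left (-0.98 and -0.58). On the x axis the arrays also differ in labelled stage.

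Few further genes of glutathione and conjugate metabolism could be matched by name. The annotation lists no gene for 8730 probe sets, so a listed gene without a match may still be on the array under no name. In the counts of every gene list given here, a gene counts as measured when a probe set names it alone. Of 23 listed genes of glutathione synthesis and recycling 2 were measured, both glutathione reductases. GR (AT3G54660), the enzyme of plastids and mitochondria, read 895, 873 and 847 units in the double mutant, against 619.5, 538 and 441 in pad4. The genotypes are clearly apart, and the log2 difference was 0.71 ± 0.18 (SE), or 1.64-fold, with an interval from 0.28 to 1.15. By limma the unadjusted p was 0.0066 and the adjusted p 0.67, so GR did not pass. Its log2 difference was 0.49 against pad4 replicate 1 alone. GR1 (AT3G24170), the cytosolic enzyme, read 209, 126 and 111 units in the double mutant, against 264, 260.5 and 49.9 in pad4, a difference of -0.10 with a wide overlap.

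In the flavonoid pathway ahead of glycosylation 1 of 23 listed genes was measured, TT3, which encodes dihydroflavonol reductase, at 10.8 units or less in every array (log2 difference -0.27). The lists of conjugate transporters (11 genes), of TGA-type regulators with their co-induced detoxification genes (15) and of nucleotide sugar supply (16) had 0 genes matched to a probe set by name, and their levels were not analysed here. Across all of these lists 0 genes passed the test in either direction.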

How the data were processed

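Total RNA of 6 leaf samples was labelled with biotin by a 3' IVT procedure, per the labels' protocols, and read on ATH1 arrays. The authors deposited 1 linear intensity (signal) per probe set. The submitters' processing notes name MAS5 and GCOS; their versions, settings and presence calls were not given in the sources used here. Deposited values have a 2%-trimmed mean of 100.0 in each array. Groups and replicate numbers come from the sample titles.

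Genes were named through the platform annotation (13513 probe sets with 1 gene, 503 with several, 8730 with none listed), and TAIR10.1 served for current names and gene order only. The brightest probe set per gene was taken; each of the 60 genes has 1. Of log2(signal + 10), limma 3.58.1 (R 4.3.3, with lmFit and eBayes and no covariates) tested all 22746 probe sets other than controls. No filter on signal was set, since the rule for members sets none. Of the genes that average at least 20 units, none had all 3 arrays of 1 genotype under 20. UGT72B3 reached that average (24.0) through pad4, whose mean was 29.4, against 18.6 for the double mutant. An offset understates the change of dim genes. In the alternative without an offset, signals under 1 unit were set to 1. The number of arrays, 3 per group, limits the precision. Alternatives changed the offset, a filter at a mean of 20 or 50 units, the scaling, the replicate block, stage, cross-hybridising probe sets, the variance model, the control 3'/5' ratio and single arrays. The procedure was tested on simulated data. Tables used Python 3.11.15, pandas 2.3.3, numpy 2.4.6 and scipy 1.17.1.

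Members, lists and tests were chosen with earlier results of these data known. Genes given with all array values are the 4 most positive and 4 most negative and the 3 brightest of each group, any that pass, and measured genes of the role lists; GSTU16, the UGT85A and UGT76E genes besides these, and the array contrast genes were added after their values were seen. In the role lists, CHI matched a chitinase gene and was left out.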

Additional observations from a re-analysis of the deposited data

How the results depend on the processing

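Against 0 probe sets called by limma, a filter at a mean of 20 units gave 5 calls and a filter at 50 units gave 6, all higher in the double mutant, while quantile normalization, median centring and the replicate block gave 1 each. None of the 60 genes was called in any of the 19 alternatives, with a smallest adjusted p of 0.34 (UGT87A2, replicate block). At an unadjusted p under 0.05 limma gave from 0 to 7 of the genes. The tau GST median was 0.18 both with a term for stage and with the 5.10 arrays alone, which give the same contrast against pad4 replicate 1. The tau GST median minus the UGT median was -0.28 with the filter at 20, -0.27 with the filter at 50 and 0.12 in both fits of stage, against -0.10. With single arrays left out the tau GST median ran from -0.25 to -0.03, the UGT median from -0.04 to 0.08 and the median of the other GSTs from -0.29 to -0.11. The sign of the difference held in all alternatives for 29 of the 60 genes and turned in at least 1 for 31, none of them called. The mean over all probe sets of a gene equals the brightest, since each gene has 1. The share of positive differences among those with an unadjusted p under 0.05 was 64.5%, and 54.4% after median centring, which shifted the median over the whole array to -0.05, against 0.02. The cause of these shifts was not tested.

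The replicate numbers were not taken as pairs, because the labels do not say that a number marks a shared batch. After each genotype's mean was taken off, arrays of number 1 correlated at 0.72, those of number 2 at -0.02 and those of number 3 at 0.58. Double mutant replicate 2 correlated best with pad4 replicate 3 (0.09). Among arrays of different number the highest value was 0.27 (double mutant replicate 1 with pad4 replicate 2). With the replicate block limma gave 2145 probe sets at an unadjusted p under 0.05 (9.43%), 7 of the 60 genes among them (11.7%), including GSTU20, GSTU23 and GSTU18 on the lower side, and called 1 probe set. Low signal limits 32 of the 60 genes, which average under 20 units.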
